A study of Macaca mulatta with 24 samples.

Results

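S100B, ALDOC and SLC2A1 are genes of astrocytes and of the supply of glucose to brain tissue, and their transcript levels were followed across 4 areas of the frontal neocortex of the rhesus monkey (Macaca mulatta). All probe sets that name one of these 3 genes alone were taken, which gave 5 of 52766 non-control probe sets on the array (1 for S100B, 2 for ALDOC and 2 for SLC2A1), and 3 of 14132 genes with a probe set of their own. The 3 genes were selected on the difference of their intensities between primary motor cortex and the prefrontal area A46 in these same arrays. Every value of that comparison is therefore given for them as a description, with no test.

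M1 is primary motor cortex, of which the forelimb part was taken, PMd is dorsal and PMv ventral premotor cortex, and A46 lies in prefrontal cortex along the principal sulcus. Each area was dissected from the left and the right hemisphere of 3 adolescent animals and hybridised to an array of its own, 24 in all. Animals 1 and 2 were males of 2.7 and 2.6 years and animal 3 a female of 2.7 years. All were group-caged, untreated and perfused with heparinised saline before dissection, so every group shares this handling and no group is a treated or altered one. The series compared motor with prefrontal areas, and the question here was how these 3 genes differed between the areas, the hemispheres and the animals.

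S100B is a small calcium-binding protein of the EF-hand type. In cortex it is best known as an astrocyte marker, and mature oligodendrocytes contain it as well. ALDOC is the brain form of fructose-bisphosphate aldolase, the glycolytic enzyme that splits fructose 1,6-bisphosphate, and in neocortex it is most abundant in astrocytes. SLC2A1 encodes the glucose transporter GLUT1, which carries glucose across the endothelium of brain capillaries and into astrocytes. Glucose that enters through it can be broken down by glycolysis, stored as glycogen in astrocytes, or passed on as lactate through monocarboxylate transporters.

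Between arrays, Pearson's r of log2 values over all probe sets was 0.978 to 0.997, and the median intensity of an array was 47.9 to 51.7. The pieces are bulk tissue, so more cells of a type and more RNA per cell cannot be told apart. Among the astrocyte markers that were measured, SLC1A2, SLC1A3, GFAP and GLUL had mean log2 intensities of 13.21, 11.78, 10.9 and 12.27, far above the filter of 5.62 used for the tests. Others were nearer to it, such as SOX9 at 7.66, ALDH1L1 at 7.2 and BMPR1B at 6.48. AQP4 and GJA1 have no probe set naming them here. The log2 ratio of 3′ to 5′ control probe sets, a measure of RNA quality, was 1.08 ± 0.11 in A46 and 0.94 ± 0.054 in M1 for actin and 0.84 ± 0.048 and 0.96 ± 0.039 for GAPDH (SD, n = 3 animals), so the 2 controls ordered these areas oppositely. Its part in the results was not tested. Spreads (SD) below are over 3 animals, after the log2 values of both hemispheres of an animal were averaged.

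S100B was highest in M1. On the 6 A46 arrays its intensity ran from 857.1 to 1256 (median 1094), on the PMv arrays from 1187 to 1438 (median 1256), on the PMd arrays from 1087 to 1449 (median 1300) and on the M1 arrays from 1368 to 2511 (median 1618). All 6 M1 arrays lay above all 6 A46 arrays, while both premotor areas overlapped with M1 and with A46. A46 had a mean log2 level of 10.04 ± 0.21 and M1 one of 10.73 ± 0.33, with PMv at 10.31 ± 0.04 and PMd at 10.33 ± 0.17 (SD, n = 3 animals). M1 was thus 1.61-fold above A46, a log2 difference of 0.69 (SE 0.14). SEs here and below come from the limma model of areas and animals. That model pools the residual spread over all areas and draws on other probe sets. Its SE is therefore not a measure of how the animals' own M1 minus A46 differences spread, which for S100B was a SD of 0.53.

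The size of that difference varied more between animals for S100B than for the other genes. It was 0.47 in animal 1, 1.29 in animal 2 and 0.3 in animal 3, a SD of 0.53. Animal 2 had both the lowest A46 arrays (857.1 left and 930.3 right) and the highest M1 arrays (2511 left and 1897 right). Without animal 2 the mean difference of M1 from A46 was 0.38, and without animal 3 it was 0.88. The steps from A46 to PMv (0.27, SD 0.17) and from PMd to M1 (0.39, SD 0.31) had the same sign in 3 of 3 animals and exceeded their spread. PMv and PMd, neighbours in this order, did not differ beyond theirs (0.02, SD 0.15).

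ALDOC was also highest in M1, with smaller differences than S100B. Its probe sets are called A, the brighter one, and B (MmuSTS.2081.1.S1_at). Probe set A ran from 4535 to 5093 on the A46 arrays (median 4934), from 4610 to 6047 in PMv (5007), from 5087 to 5954 in PMd (5388) and from 5440 to 6115 in M1 (5930). Probe set B ran from 4447 to 4873 in A46 (median 4588), from 4671 to 5243 in PMv (4903), from 5241 to 5930 in PMd (5396) and from 5462 to 6222 in M1 (5814). On both, no M1 array fell into the range of A46. On probe set B the PMd arrays also lay above all A46 arrays, and on probe set A 1 PMd array, at 5087, fell just below the highest A46 array.

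The M1 level of ALDOC was 1.21-fold the A46 level on probe set A (log2 difference 0.27, SE 0.055) and 1.26-fold on probe set B (0.33, SE 0.051). The 3 animals were close to each other, at 0.24, 0.28 and 0.31 on probe set A and at 0.37, 0.35 and 0.26 on probe set B. On probe set B each step was larger than its spread and had the same sign in 3 of 3 animals: A46 to PMv (0.09, SD 0.0064), PMv to PMd (0.16, SD 0.09) and PMd to M1 (0.09, SD 0.042). On probe set A this held for PMv to PMd (0.09, SD 0.064) and PMd to M1 (0.12, SD 0.039), whereas PMv did not differ from A46 beyond the spread (0.07, SD 0.13). Both probe sets read the same RNA, so they are not independent samples.

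SLC2A1 was lowest in A46 on its brighter probe set, A (MmuSTS.3872.1.S1_at), and the 3 motor areas lay close together. Intensity ran from 266.9 to 300.2 on the A46 arrays (median 285.9), from 275.7 to 351.7 in PMv (319.5), from 306 to 368.7 in PMd (326) and from 326.3 to 359.7 in M1 (335.7). All M1 arrays and all PMd arrays lay above all A46 arrays, and PMv overlapped with A46 in animal 1. M1 was 1.18-fold above A46 (log2 difference 0.24, SE 0.067), with 0.21, 0.25 and 0.27 in the 3 animals. PMv to PMd (0.07, SD 0.1) and PMd to M1 (0.04, SD 0.082) did not differ beyond their spread. M1 lay above PMv in 3 of 3 animals, by a mean of 0.11 (SD 0.1). The step from A46 to PMv (0.14, SD 0.13) exceeded its spread by little and had the opposite sign in animal 1 (-0.01).

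The other SLC2A1 probe set, B (MmugDNA.42958.1.S1_at), read the other way. It was dim, with 28 to 36.15 on the A46 arrays, 27.57 to 39.21 in PMv, 30.66 to 35.68 in PMd and 20.63 to 32.96 in M1, under the intensity of 49.3 that the filter corresponds to. M1 was 0.796-fold of A46 (log2 difference -0.33, SE 0.12), with -0.5, -0.28 and -0.21 in the 3 animals, and the arrays of both areas overlapped. The direction for SLC2A1 between A46 and M1 thus rests on probe set A. No probe set of the other genes lay below the filter.

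**Figure D1:**
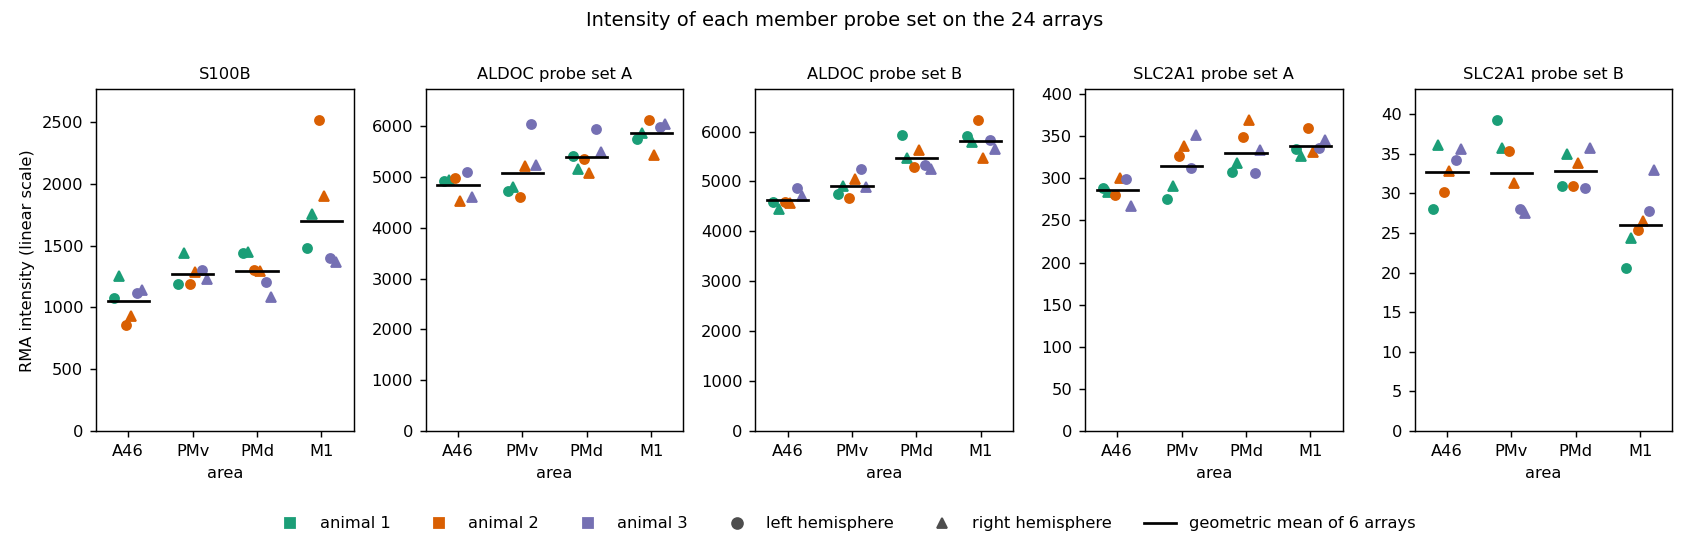
RMA intensity on a linear scale (vertical) by area (horizontal) for each of the 5 probe sets; each point is 1 array, with colour for the animal, shape for the hemisphere and a bar at the geometric mean of the 6 arrays. On S100B, both ALDOC probe sets and SLC2A1 probe set A the M1 arrays all lie above the A46 arrays, and on SLC2A1 probe set B the M1 mean is the lowest.

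Of the 4 probe sets past the intensity filter, 4 had all M1 arrays above all A46 arrays, where 4.78% of the 26383 probe sets past the filter did, and 0 had all of them below, where 3.89% did. The difference was above 0 in every animal for 4 of 4, as for 23.1% of probe sets. In the limma model of areas and animals 12.9% of those probe sets were called for M1 minus A46 in either direction. All 4 also had area means that rose in the order A46, PMv, PMd and M1, as 11.1% of probe sets did. Since the genes were taken for this difference, nothing is read from these counts or from the ranks by size that follow. As for size, 1% of probe sets had a larger positive difference of M1 from A46 than S100B, 6.97% a larger one than ALDOC probe set A, 5% than ALDOC probe set B and 8.53% than SLC2A1 probe set A.

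**Figure D2:**
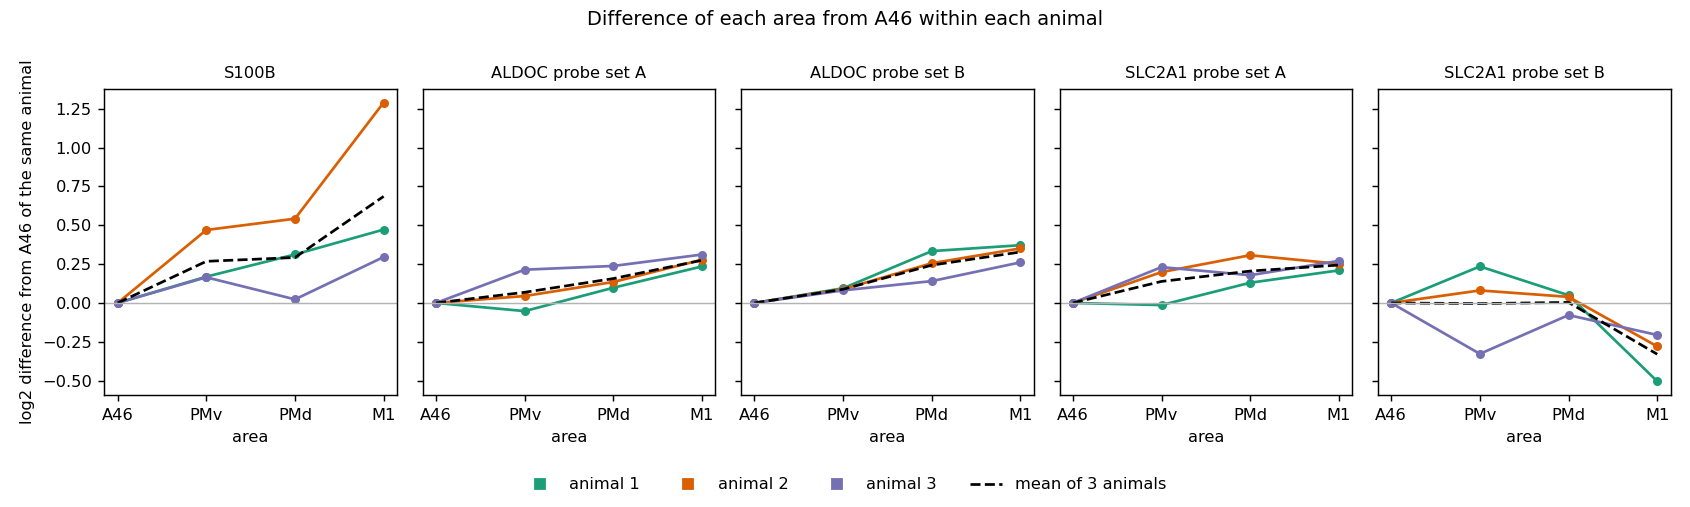
Log2 difference from the same animal's A46 (vertical) by area (horizontal), with a line for each animal and a dashed line for the mean of 3 animals. S100B spans 0.3 to 1.29 in M1 across animals, ALDOC and SLC2A1 probe set A stay between 0.21 and 0.37, and SLC2A1 probe set B falls below 0 in M1 in all 3.

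Differences that the choice of genes did not use were tested next. The first was PMd minus PMv, within premotor cortex. Of the 4 probe sets 0 passed, against 0.00758% of all probe sets (2 of 26383, with 1425 at an unadjusted p under 0.05). S100B differed by 0.02 (95% interval -0.27 to 0.32, limma adjusted p = 0.985) and SLC2A1 probe set A by 0.07 (-0.08 to 0.21, adjusted p = 0.885). For ALDOC the difference was 0.09 on probe set A (-0.03 to 0.21, adjusted p = 0.854) and 0.16 on probe set B (0.04 to 0.27, unadjusted p = 0.00979, limma adjusted p = 0.854), positive in 3 of 3 animals on both. Without animal 3, which leaves 2 males, probe set B passed (0.2, limma adjusted p = 0.0235), in a fit that called 1398 probe sets in all.

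The second test asked whether the premotor mean departed from the midpoint between M1 and A46. None of the 4 did by limma, where 0.0303% of probe sets (8 of 26383, with 1775 at an unadjusted p under 0.05) were called. S100B lay 0.06 below the midpoint (difference -0.06, 95% interval -0.27 to 0.15, limma adjusted p = 0.882). ALDOC differed from it by -0.02 on probe set A (-0.11 to 0.06, adjusted p = 0.884) and by 0.002 on probe set B (-0.08 to 0.08, adjusted p = 0.995). SLC2A1 probe set A lay 0.05 above it (-0.05 to 0.15, adjusted p = 0.801). On these 4 probe sets the mean premotor level lay between those of A46 and M1.

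Left and right hemispheres were compared over the 12 pairs of arrays from one animal and area. By limma 0 of the 4 probe sets passed and 0 of all 26383 (0%), with 2022 at an unadjusted p under 0.05. Per-animal means over the areas, an alternative, called 38 probe sets and again 0 of these 4. S100B was higher on the left in 5 of 12 pairs (mean left minus right -0.03, 95% interval -0.13 to 0.07, limma adjusted p = 0.929). ALDOC was higher on the left in 7 of 12 pairs on probe set A (0.06, -0.02 to 0.13, adjusted p = 0.742) and in 9 of 12 on probe set B (0.03, -0.03 to 0.09, adjusted p = 0.869). SLC2A1 probe set A was higher on the left in 4 of 12 pairs (-0.03, -0.1 to 0.04, adjusted p = 0.889). Independence was assumed for the 12 pairs, which 3 animals supplied.

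Single pairs of S100B differed more than that mean. The largest were M1 of animal 2, where the left piece was higher by 0.4, and PMv of animal 1, where it was lower by 0.28. In the same M1 pair of animal 2 the mean log2 level of 12 oligodendrocyte and myelin genes was 0.33 higher on the left, and that of 18 astrocyte genes 0.06 higher. Means of the S100 family, glycolysis, glucose and lactate transporter, glycogen, endothelial, neuron and microglia genes were 0.04 to 0.12 higher there. The mean of hypoxia-responsive genes was -0.03. In the PMv pair of animal 1 the oligodendrocyte and astrocyte means were -0.27 and -0.15, so both lists were lower on the left. Means of neuron (-0.22), glycogen (-0.22), glycolysis (-0.2), glucose and lactate transporter (-0.11), hypoxia-responsive (-0.09) and microglia genes (-0.03) were lower too. Those of endothelial and pericyte (0.05) and S100 family genes (0.02) were not. The left array of this pair had the narrowest spread of log2 values among the PMv arrays (1.79). Over all 12 pairs the oligodendrocyte mean ranged from -0.34 to 0.45 and the astrocyte mean from -0.15 to 0.06. The F test for a left-minus-right difference that varies between areas called 0 of the 4 probe sets and 0 of all (0%, with 1113 at an unadjusted p under 0.05), with a limma adjusted p = 0.999 for each of the 4.

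**Figure D3:**
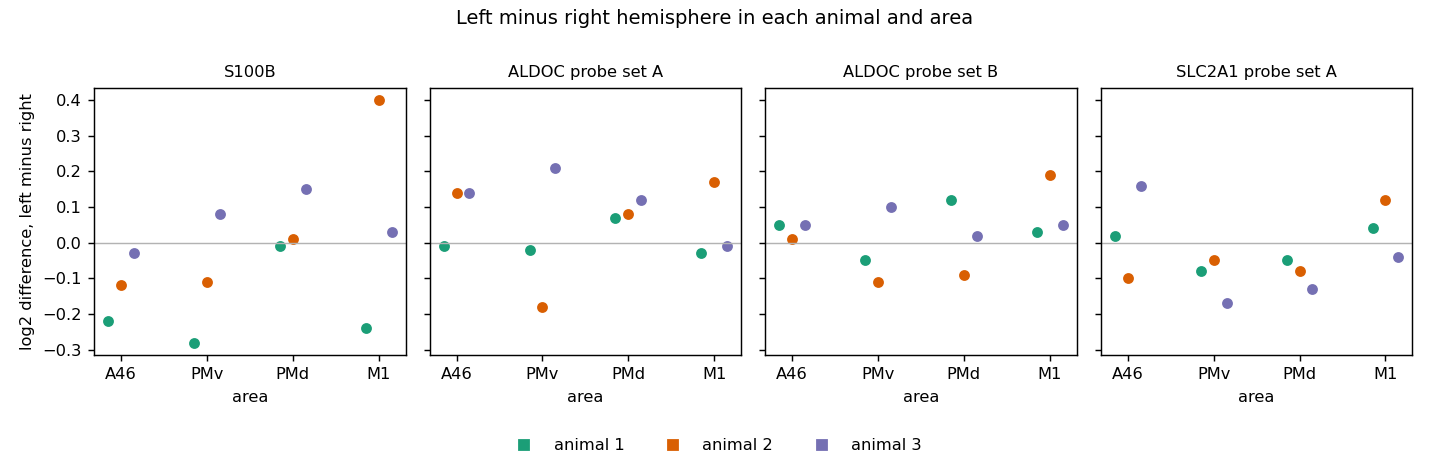
Log2 difference of left minus right hemisphere (vertical) by area (horizontal), with 1 point for each animal in its colour, for the 4 probe sets past the filter. Points lie on both sides of 0, and the widest span is that of S100B, from -0.28 to 0.4.

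No difference between the animals passed for these genes. The mean over the areas was 10.42, 10.38 and 10.26 for S100B in animals 1, 2 and 3, and 8.24, 8.37 and 8.31 for SLC2A1 probe set A. For ALDOC it was 12.34, 12.33 and 12.43 on probe set A and 12.34, 12.33 and 12.35 on probe set B. The limma F test for animals called 0 of 4 probe sets (adjusted p = 0.556 for S100B, 0.198 and 0.964 for ALDOC, 0.259 for SLC2A1), where 24.3% of all probe sets were called. Animal made up part of the variance across the 12 means, namely 5.13% for S100B, 15.4% and 0.22% for ALDOC and 20% for SLC2A1 probe set A, against a median of 29.4% over all probe sets. Animal 3 was the only female, so sex and animal cannot be told apart.

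The M1 minus A46 difference of S100B was highest in animal 2, then animal 1, then animal 3. This order was found for 18.1% of the 10043 genes tested, for 9 of 12 markers of oligodendrocytes, the myelin-forming cells, for 8 of 11 microglia markers and for 5 of 18 astrocyte markers. In M1 minus A46 the myelin basic protein gene MBP differed by 1.03, 1.69 and 0.85 in animals 1, 2 and 3, and SOX10, the transcription factor of oligodendrocytes, by 1.26, 1.64 and 0.78. The median of the 12 measured oligodendrocyte and myelin genes was 1.15, 1.67 and 0.89. The 18 measured astrocyte markers had medians of -0.14, 0.05 and 0.1, and the 11 microglia markers 0.06, 0.19 and -0.04. GFAP, the intermediate filament protein of astrocytes, differed by -0.28, 0.95 and -0.46, so animal 2 alone had more GFAP in M1 than in A46. The part of oligodendrocyte, microglia or astrocyte RNA in the S100B difference was not tested. ALDOC and SLC2A1 did not follow this order between animals.

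**Figure D4:**
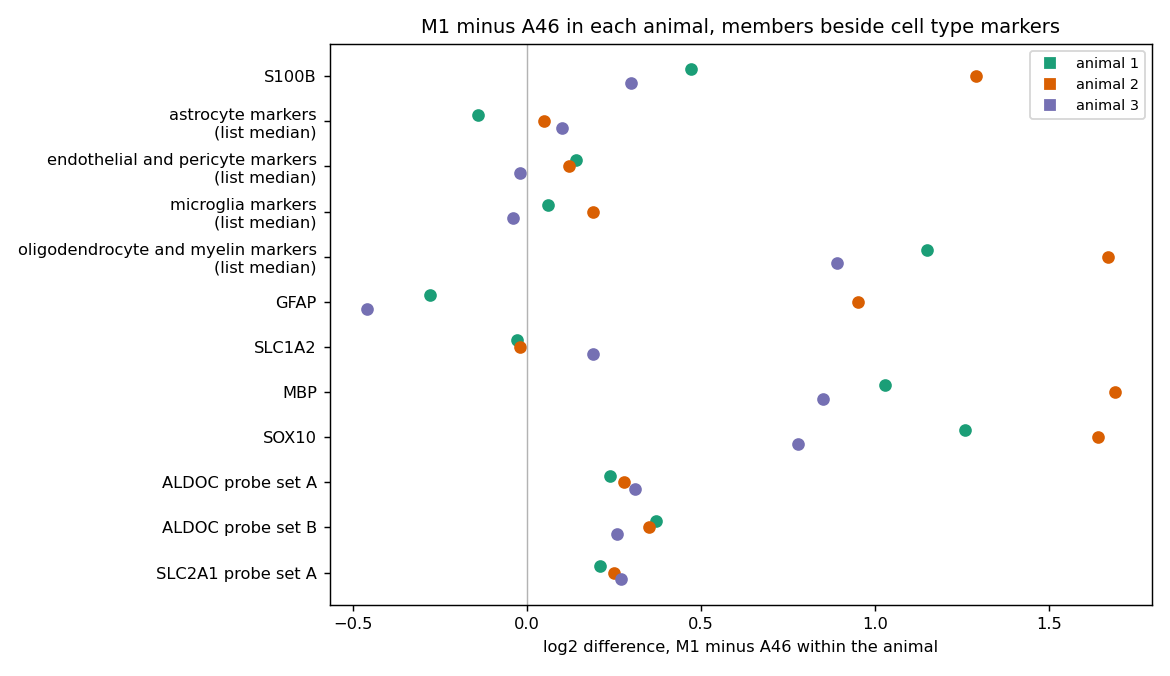
Log2 difference of M1 minus A46 (horizontal) within each animal, 1 coloured point per animal, for the members, for 4 single marker genes and for the medians of 4 marker lists (rows). S100B, GFAP, MBP, SOX10 and the oligodendrocyte and microglia medians have their highest value in animal 2, while ALDOC and SLC2A1 probe set A have 3 points close together.

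Most measured astrocyte markers did not pass in M1 minus A46. The background for the lists is the 10043 genes past the filter, each represented by its brightest probe set, of which limma called 8.77% as higher in M1 and 5.89% as lower, with a median of 0.00. Of 18 measured astrocyte markers other than the members 2 rose in M1, 0 fell and 16 did not pass, with a median of -0.01. HEPACAM, a glial cell adhesion protein, rose by 0.43 (SE 0.069, limma adjusted p = 0.00118). F3, the coagulation starter tissue factor, rose by 0.45 (SE 0.098, adjusted p = 0.00934). Without animal 2 neither passed (HEPACAM 0.346 with adjusted p = 0.155, F3 0.407 with adjusted p = 0.203). The fit without animal 2 called 404 probe sets in all for M1 minus A46, against 3391 with every animal and 5407 without animal 3. The glutamate transporters SLC1A2 (0.05, adjusted p = 0.693) and SLC1A3 (-0.1, adjusted p = 0.506), the glutamine synthetase gene GLUL (0.02, adjusted p = 0.919) and GFAP (0.07, adjusted p = 0.869) did not pass, although SLC1A3 did without animal 3 (-0.17, adjusted p = 0.0223). The growth factor receptor FGFR3 (0.25, adjusted p = 0.0906) and the filament protein VIM (-0.34, adjusted p = 0.109) did not pass either, though VIM did without animal 3 (-0.52, adjusted p = 0.00294). The other FGFR3 probe set had the opposite sign (-0.21, adjusted p = 0.138). APOE, named after its value was seen, had the largest difference of the 18 and did not pass (-0.59, adjusted p = 0.141). Its difference was negative in every animal (-0.54, -0.5 and -0.74) and on each of its 3 probe sets. The summed intensity of the 18 genes was 31500 to 33900 on the A46 arrays and 30500 to 33900 on the M1 arrays.

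None of the S100 family genes tested in M1 minus A46 passed, and S100B itself was given no test there. The family encodes small calcium-binding proteins, and 8 of its genes other than S100B were measured above the filter. Their median was 0.12, and 0 rose or fell by limma (1, S100A1, had an unadjusted p under 0.05). S100A1 (0.23, adjusted p = 0.0868) and S100A14 (0.17, adjusted p = 0.272) passed without animal 3 (0.37 with adjusted p = 0.00181, and 0.32 with adjusted p = 0.0054). S100A16 (0.15, adjusted p = 0.214) and S100A10 (0.13, adjusted p = 0.226) did not pass.

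Most glycolysis genes did not pass. Of 12 measured besides ALDOC, 2 rose in M1, 1 fell and 9 did not pass, with a median of 0.08. Triosephosphate isomerase TPI1, which acts on the products of aldolase, rose by 0.3 (SE 0.066, limma adjusted p = 0.00974) and the platelet-type phosphofructokinase PFKP by 0.2 (SE 0.054, adjusted p = 0.0255). The liver-type phosphofructokinase PFKL fell by 0.28 (SE 0.068, adjusted p = 0.0154). ALDOA, the aldolase of muscle that is also widely expressed in brain, did not pass (0.05, adjusted p = 0.677), nor did hexokinase HK1 (-0.06, adjusted p = 0.598), lactate dehydrogenase LDHA (0.00, adjusted p = 0.979) and GAPDH (0.2, adjusted p = 0.0659), although GAPDH passed without animal 3 (0.27, adjusted p = 0.00791). Without animal 1 the adjusted p was 0.113 for TPI1, 0.0813 for PFKP and 0.0944 for PFKL, and without animal 2 it was 0.337, 0.448 and 0.277. The differences were 0.251, 0.236 and -0.268 without animal 1 and 0.253, 0.197 and -0.268 without animal 2.

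The measured genes of the next list belong to the families of glucose (SLC2A) and lactate (SLC16A) transporters, with BSG added. Of 10 besides SLC2A1, 3 rose in M1 and 0 fell, with a median of -0.01. SLC16A1, the lactate transporter MCT1, rose by 0.41 (SE 0.078, limma adjusted p = 0.00384). SLC2A10, a glucose transporter of the same family as SLC2A1, rose by 0.5 (SE 0.14, adjusted p = 0.0306). BSG, which encodes basigin, the partner protein that brings MCT1 to the membrane, rose by 1.06 (SE 0.073, adjusted p = 4.09e-06) on its brightest probe set, while its other 2 probe sets were at 0.08 (adjusted p = 0.491) and -0.1 (adjusted p = 0.364). SLC2A3, the neuronal glucose transporter, did not pass (0.05, adjusted p = 0.719), nor did SLC2A13 (-0.24, adjusted p = 0.374), which passed without animal 3 (-0.45, adjusted p = 0.0116). SLC16A7, the lactate transporter of neurons, lay below the filter. Without animal 2 SLC16A1 (0.445, adjusted p = 0.12) and SLC2A10 (0.366, adjusted p = 0.482) did not pass.

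Of 7 measured genes of glycogen metabolism 2 rose in M1 and 0 fell, with a median of 0.07. PYGL, a glycogen phosphorylase gene, rose by 0.66 (SE 0.12, limma adjusted p = 0.00303). It has 6 probe sets, of which 2 were past the filter, and the second of these also passed (0.8, adjusted p = 9.51e-05). The phosphorylase genes PYGB and PYGM have no probe set naming them here. Glycogenin GYG1, which starts a glycogen granule, rose by 0.24 (SE 0.068, adjusted p = 0.0336). UGP2, which makes UDP-glucose, did not pass (0.23, adjusted p = 0.0623) but did without animal 3 (0.2, adjusted p = 0.0243), and PHKB did not (0.07, adjusted p = 0.611). Without animal 2 neither PYGL (0.521, adjusted p = 0.173) nor GYG1 (0.254, adjusted p = 0.379) passed. GYG1 also missed the threshold without animal 1 (0.267, adjusted p = 0.0657) and without animal 3 (0.207, adjusted p = 0.0645).

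SLC2A1 was set beside markers of the vessels in which it is abundant. Of 17 measured endothelial and pericyte markers 2 rose in M1, 0 fell and 15 did not pass, with a median of 0.06 and with medians of 0.14, 0.12 and -0.02 in animals 1, 2 and 3. CLDN5, the tight junction protein of the blood-brain barrier, was at 0.00 (adjusted p = 0.992). The transferrin receptor TFRC rose by 0.69 (SE 0.078, limma adjusted p = 0.000101), and the endothelial sialomucin EMCN by 0.27 (SE 0.071, adjusted p = 0.0267). EMCN did not pass without animal 1 (0.303, adjusted p = 0.0602) or animal 2 (0.221, adjusted p = 0.464). CDH5 (0.15, adjusted p = 0.241) and ENG (0.14, adjusted p = 0.242) did not pass, though ENG did without animal 3 (0.23, adjusted p = 0.0447). The summed intensity of these 17 genes was 2840 to 3180 on the A46 arrays and 3220 to 3540 on the M1 arrays, which do not overlap. TFRC made up most of this gap, with 461 to 634 on the A46 arrays and 706 to 925 on the M1 arrays. Without TFRC the sum of the other 16 genes was 2380 to 2560 in A46 and 2490 to 2620 in M1, which overlap. Red blood cells also carry SLC2A1 protein, and of the 2 blood cell genes above the filter HBB (-0.09, adjusted p = 0.507) and ALAS2 (-0.03, adjusted p = 0.829) did not pass. The part of vessels in the SLC2A1 difference was not tested.

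Oligodendrocyte genes differed most of the lists examined. Of 12 measured 11 rose in M1 and 0 fell, with a median of 1.23, led by UGT8 (2.26), BCAS1 (1.81) and GJB1 (1.58). CNP did not pass on its brightest probe set (-0.08, limma adjusted p = 0.576) or its other one (-0.15, adjusted p = 0.288). The dimmer probe sets of OLIG2 (0.12, adjusted p = 0.404) and MYRF (-0.11, adjusted p = 0.509) did not pass either. The dimmer ones of MBP, SOX10, UGT8 and ENPP2 passed. The summed intensity of the 12 genes was 10500 to 14200 on the A46 arrays, 15100 to 20000 in PMv, 14300 to 19300 in PMd and 20400 to 28300 in M1, so M1 did not overlap with any other area. PMv and PMd overlapped with each other and not with A46. MBP, the brightest of the 12, weighs most in this sum, with mean log2 levels of 12.59 in A46 and 13.78 in M1. The sum without MBP was not examined.

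Of 11 neuron markers 2 rose, STMN2 (0.25, limma adjusted p = 0.0135) and THY1 (0.23, adjusted p = 0.04), and CAMK2A fell by 0.53 (adjusted p = 0.023), while NRGN did not pass (-0.15, adjusted p = 0.0772), with a list median of -0.14. Of 11 microglia markers 2 rose, TYROBP (0.48, adjusted p = 0.0124) and ITGAM (0.26, adjusted p = 0.0157), and CD68 fell by 0.41 (adjusted p = 0.00665), while P2RY12 did not pass (0.22, adjusted p = 0.243), with a list median of 0.05. Without animal 2 the adjusted p was 0.255 for STMN2, 0.391 for THY1, 0.286 for CAMK2A, 0.405 for TYROBP, 0.458 for ITGAM and 0.205 for CD68. Without animal 1 it was 0.148, 0.213, 0.163, 0.0868, 0.0799 and 0.082. In the same order the differences were 0.26, 0.225, -0.518, 0.292, 0.206 and -0.379 without animal 2. They were 0.215, 0.203, -0.406, 0.466, 0.274 and -0.353 without animal 1.

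Hypoxia induces both SLC2A1 and ALDOC in many cells, so other genes it induces were listed too. Of 5 measured 0 rose in M1 and P4HA1, a collagen prolyl hydroxylase, fell by 0.32 (SE 0.078, limma adjusted p = 0.0164) on its brightest probe set. The other P4HA1 probe set had the opposite sign and did not pass (0.28, adjusted p = 0.0655). PFKFB3 (0.21, adjusted p = 0.15), KDM3A (-0.03, adjusted p = 0.9) and LDHA (0.00) did not pass, and the list median was 0.00. P4HA1 did not pass without animal 1 (-0.258, adjusted p = 0.126) or animal 2 (-0.34, adjusted p = 0.27).

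In the comparisons not used to pick the genes, 0 genes of any of the 11 lists passed in PMd minus PMv, in the premotor mean against the midpoint of M1 and A46, or in left minus right, where 0.0199%, 0.0199% and 0% of genes or probe sets were called.

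**Figure D5:**
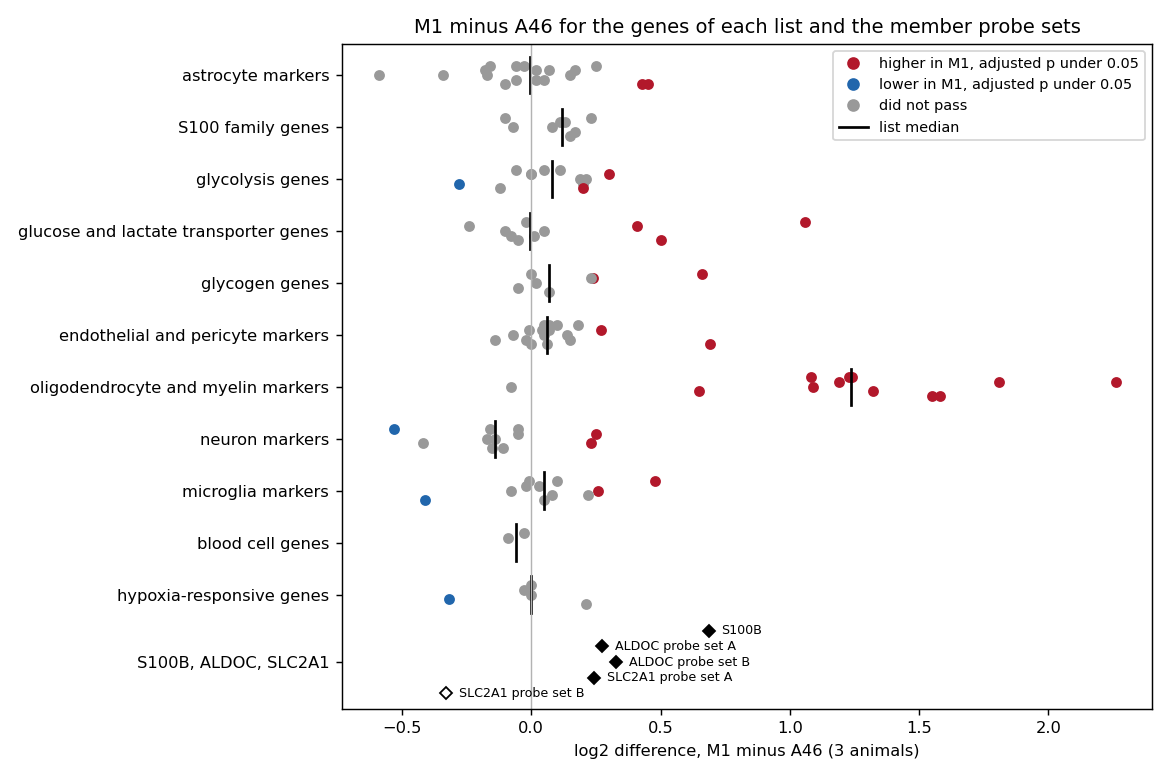
Log2 difference of M1 minus A46 over 3 animals (horizontal) for each measured gene of the 11 lists (rows), coloured by limma's call, with a bar at the list median, and for the 5 member probe sets as diamonds, the open one being below the filter. Oligodendrocyte and myelin genes lie around a median of 1.23, and the other lists have medians between -0.14 and 0.12.

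Finally, the genes with the most similar pattern were sought by Pearson's r over the 12 animal-by-area means, after each animal's mean had been removed. These 12 points share 3 animals and the area differences by which the members were picked, so r is a description. For S100B the 5 nearest genes were LPCAT2 (r = 0.993), FIG4 (0.983), PACS2 (0.977), DAAM2 (0.977) and PLAAT3 (0.976). For ALDOC they were TNFRSF21 (0.978), KCNJ10 (0.975), SSB (0.971), VEZF1 (0.97) and CAMK2G (0.967) on probe set A, and NDUFB3 (0.985), SAT2 (0.981), SDC4 (0.973), LOC701156 (0.973) and MPHOSPH10 (0.973) on probe set B, with no gene in both sets of 5. For SLC2A1 probe set A they were RAP1GDS1 (0.981), LOC717921 (0.975), KCTD8 (0.97), ADAMTS1 (0.967) and MRPL2 (0.964). By the same measure the 2 ALDOC probe sets had r = 0.886 with each other, S100B had 0.76 and 0.802 with them, and SLC2A1 probe set A had 0.864 and 0.844 with them and 0.675 with S100B. The 2 SLC2A1 probe sets had r = -0.573.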

How the data were processed

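Total RNA of 24 cortical pieces was hybridised to 1-colour Affymetrix rhesus arrays. The deposited values are intensities on a linear scale, summarised by the authors with RMA per the submitters' processing notes. Neither the version of RMA nor which arrays it scaled jointly is stated in those notes. There is no read depth in array data, and precision is limited by having 3 animals.

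Deposited intensities were turned into log2 values (floor 1, reached by 0 values). Of 52865 probe sets 99 controls were left out. Of the 52766 others 24956 had 1 gene symbol, 361 several and 27449 none in the platform annotation, and genes were named from the first kind only. The 26383 probe sets with a mean log2 of at least 5.62, the median, were tested. Hemispheres were averaged, and the 12 animal-by-area means were fitted with area and animal in limma 3.58.1 (R 4.3.3), with an intensity trend and Benjamini-Hochberg adjustment over all 26383 at 0.05. Left and right were compared on 24 arrays with the animal-by-area pair as a block. A gene was read from its brightest probe set. The tests were run on simulated data, where 200 of 200 changed probe sets were recovered for PMd minus PMv and 198 of 200 for left minus right, each with a log2 change of 1, beside 7 and 10 false calls. That change is larger than any member difference tested, so recovery of differences of their size was not examined.

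Animal numbers in the labels pair the samples, since same-numbered pieces come from 1 animal. The deviations of same-animal areas correlated at 0.207 to 0.85 over 18 pairs, and those of different animals and areas at -0.561 to 0.0654 over 36 pairs. Deviations were taken from each area's mean over the same few animals. This by itself pushes correlations between animals towards negative values, so the contrast is partly built in. The labels name the animals as separate individuals, and sex, age and handling go with the animal.

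Named genes were the members, up to 4 genes of each of 11 lists with the smallest p in M1 minus A46, a set of well-known markers by name, and the 5 genes with the most similar pattern to each member probe set. The members and the lists were chosen with earlier results of these data known. Alternatives were the filter, an offset of 16, scaling, the trend, the blocks, single hemispheres, per-animal means and leaving out each animal; the spread of each array's log2 values as a covariate was added after seeing the data. No genome build is named in the labels or headers, so no coordinates are given.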

Additional observations from a re-analysis of the deposited data

Results flagged for a closer look

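The dim SLC2A1 probe set B differed between hemispheres in opposite directions in different areas. In PMv it was higher on the left in 3 of 3 animals (mean left minus right 0.11 on the log2 scale), and in A46 (-0.18), PMd (-0.17) and M1 (-0.18) it was higher on the right in 3 of 3. The left-minus-right difference of A46 was thus -0.29 from that of PMv, and that of PMv was 0.29 above that of PMd and 0.29 above that of M1. The limma F test for a difference between areas, run without the intensity filter, gave F = 2.33 (unadjusted p = 0.105, adjusted p = 0.972, 0 of 52766 probe sets called). SLC2A1 probe set A did not have this pattern, with means of 0.03, -0.1, -0.08 and 0.04 in A46, PMv, PMd and M1.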

How the results depend on the processing

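For the 4 tested member probe sets all 84 values of the limma F tests and 136 other test values kept direction and side of the threshold, 11 changed sign and 1 newly passed; the causes were not tested. The last was ALDOC probe set B in PMd minus PMv (0.113 to 0.203 with 1 animal left out, passing without animal 3). S100B in PMd minus PMv turned to -0.045 with quantile normalisation, -0.051 on right hemispheres, -0.039 with the spread covariate and ranged from -0.035 to 0.107 with 1 animal left out. Its left minus right ranged from -0.071 to 0.052. Premotor minus midpoint turned to 0.007 for ALDOC probe set A with the spread covariate (-0.072 to 0.01 with 1 animal left out), to -0.007 with median centring and -0.03 on left hemispheres for ALDOC probe set B (-0.012 to 0.012), and to -0.013 on left hemispheres for SLC2A1 probe set A. M1 minus A46 was 0.328 on the other ALDOC probe set and -0.33 on the other SLC2A1 probe set.

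Counts moved more. M1 minus A46 called 3391 probe sets, 1056 with no replicate block, 2151 with median centring, 1265 on left hemispheres, 6519 with the spread covariate and 404 to 5407 with 1 animal left out. Its split was 1976 higher and 1415 lower, but 1483 and 668 with median centring, 3098 and 3421 with the covariate, 1194 and 455 without animal 1 and 279 and 125 without animal 2. PMd minus PMv called 2, and 0 with the stricter filter, no replicate block or left hemispheres, 1 with median centring, quantile normalisation, right hemispheres or the covariate, and 0 to 1398 with 1 animal left out. Premotor minus midpoint called 8, and 5 with the stricter filter, 2 with median centring, 0 with no replicate block or left hemispheres, and 0 to 1996 with 1 animal left out. Left minus right called 0, and 38 on per-animal means; by area it called 0 to 3 with 1 animal left out. Animal differences called 6404, and 4100 with the stricter filter, 2660 on left hemispheres, 10215 with the covariate and 2421 to 4478 with 1 animal left out. Of the list genes 26 were higher (14 with no replicate block, 17 on left hemispheres, 12 to 31 with 1 animal left out) and 4 lower (0 with no replicate block, 1 with median centring, 7 with quantile normalisation, 2 on left or right hemispheres, 11 with the covariate, 1 to 12 with 1 animal left out). Leaving out the block changed no member call.

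Genes near 0 in M1 minus A46 changed sign. ALAS2 was 0.055 on right hemispheres. With 1 animal left out KDM3A ranged from -0.082 to 0.07, GFAP from -0.368 (without animal 2) to 0.334 and SLC1A2 from -0.025 to 0.085. LDHA was -0.017 with quantile normalisation, -0.019 on left hemispheres, -0.013 with the covariate and -0.045 to 0.053 with 1 animal left out. GLUL was -0.004, -0.046 and -0.011 with quantile normalisation, left hemispheres and the covariate, and -0.029 to 0.068 with 1 animal left out. CLDN5 was 0.014 with median centring, 0.029 on left hemispheres, and -0.022 to 0.013 with 1 animal left out (0.003 without animal 2).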

Other observations

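Probe sets of one gene did not always read alike in M1 minus A46; these genes were picked after their values were seen. For NDRG2, an astrocyte gene, the brightest 2 probe sets did not pass (0.02, limma adjusted p = 0.907, and -0.03, adjusted p = 0.869), while the dimmest was higher in M1 by 0.48 (adjusted p = 0.000406). For GPI, the glycolytic enzyme glucose-6-phosphate isomerase, the brightest did not pass (-0.12, adjusted p = 0.223), another fell by 0.67 (adjusted p = 0.000205) and the dimmest did not pass (-0.16, adjusted p = 0.18). For PKM, also of the glycolysis list, the brightest 2 did not pass (0.11, adjusted p = 0.258, and 0.00, adjusted p = 0.994). The dimmest PKM probe set fell by 0.59 (adjusted p = 0.000189).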
